A study of Mus musculus with 12 samples.

Results

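The 4 genes described here encode cadherins of cell-cell contact, a catenin that binds cadherins and an epithelial surface protein. They are Cdh1 (E-cadherin), Cdh4 (R-cadherin), Arvcf (the catenin) and Gpa33 (the A33 antigen). They were taken by gene name and are 4 of the 99 genes in the table of expression values analysed here. The study compared 4 kinds of mouse cells by RNA sequencing, with 3 separate cultures of each and 12 libraries in all. iMSCs were mesenchymal cells induced from iPSCs, which were first grown as embryoid bodies and then given TGF-beta1 at 10 ng/ml with bFGF at 5 ng/ml, and their genotype is labelled Reprogramming. BMSCs were mesenchymal cells cultured from the femoral marrow cavity and labelled WT. iPSCs, also labelled Reprogramming, were made from fibroblasts with Sendai virus carrying human Oct4, SOX2, Klf4 and c-Myc, and were grown with LIF, at first on a mitomycin C feeder layer. Fibs were skin fibroblasts labelled WT. Per the study's methods, Fibs came from the ears of female C57BL/6 mice aged 8 weeks. How many iPSC colonies gave the libraries, and the age of the mice behind the BMSCs, are not stated in the sources.

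Classical cadherins are calcium-dependent adhesion proteins that span the cell membrane. Outside the cell they bind the same cadherin on the next cell, and inside the cell their tail holds catenins. Beta-catenin binds near the end of the tail and links the junction to actin through alpha-catenin, whereas p120-catenin and its relative Arvcf bind the tail close to the membrane and affect how long cadherins stay at the surface. E-cadherin holds epithelial sheets and the compact colonies of mouse pluripotent cells together, and it is typically low in fibroblasts and mesenchymal stromal cells. The A33 antigen is an immunoglobulin-family surface protein best known from intestinal epithelium.

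The ends of the coding sequences of Cdh1 and Cdh4 are shown because they encode the catenin-binding end of the 2 cadherins and because they show how far reads of one gene could be taken for the other. Both stretches are the last 150 coding bases before the stop codon and lie in exon 16 of 16, at chr8:106668463-106668612 for Cdh1 and at chr2:179895766-179895915 for Cdh4 (GRCm38, plus strand, GENCODE M21). Capitals mark bases that are identical in the alignment of the 2.
Cdh1: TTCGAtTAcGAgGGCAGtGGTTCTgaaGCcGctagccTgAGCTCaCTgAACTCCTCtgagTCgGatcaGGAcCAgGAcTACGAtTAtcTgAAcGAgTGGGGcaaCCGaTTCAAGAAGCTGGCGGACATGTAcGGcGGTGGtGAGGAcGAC
Cdh4: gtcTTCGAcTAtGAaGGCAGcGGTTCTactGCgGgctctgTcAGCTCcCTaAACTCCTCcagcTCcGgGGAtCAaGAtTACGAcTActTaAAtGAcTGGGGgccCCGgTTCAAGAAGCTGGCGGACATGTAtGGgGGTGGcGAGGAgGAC
The 2 ends shared 107 of 150 bases (71.3%), against 57.2% over the 2633 aligned positions of the whole coding sequences. The longest exact stretch that the 2 coding sequences shared was 23 bases, and 0 of the 7223 words of 31 bases in Cdh4 transcripts occurred in Cdh1 transcripts.

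RefSeq start-site windows (GRCm38.p6, 250 bases before to 50 after the start) were held for 2 of the 4 genes, Arvcf and Gpa33. They are shown because these 2 genes were both highest in iPSCs but differed widely in what remained in the other cells. The first of 3 Arvcf windows is chr16:18347932-18348231 and the Gpa33 window is chr1:166129971-166130270, both on the plus strand. Capitals mark the letters CAGGTG (the E-box read by Snail and ZEB factors, known repressors of Cdh1), CCAAT (the CCAAT box) and GGGCGG (the GC box), which were searched on both strands.
Arvcf: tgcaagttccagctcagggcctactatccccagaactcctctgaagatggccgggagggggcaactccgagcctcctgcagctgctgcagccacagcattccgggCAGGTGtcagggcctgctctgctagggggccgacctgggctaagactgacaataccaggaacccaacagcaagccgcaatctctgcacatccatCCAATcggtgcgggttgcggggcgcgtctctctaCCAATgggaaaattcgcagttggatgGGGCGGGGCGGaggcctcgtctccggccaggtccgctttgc
Gpa33: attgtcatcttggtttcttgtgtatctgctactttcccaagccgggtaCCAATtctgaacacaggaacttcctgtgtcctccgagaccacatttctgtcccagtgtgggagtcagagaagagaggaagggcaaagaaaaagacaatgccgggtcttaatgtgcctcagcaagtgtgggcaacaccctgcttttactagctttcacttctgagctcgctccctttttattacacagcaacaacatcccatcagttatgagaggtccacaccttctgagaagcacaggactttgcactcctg
The Arvcf window held 1 CAGGTG at -145, 2 CCAAT at -51 and -17, and 2 GGGCGG at 9 and 14, which overlap by their last and first letters, with positions counted from the start site. The Gpa33 window held 1 CCAAT at -202 and none of the other 2 motifs. Among all 32851 windows, 20.2% held CAGGTG, 37.4% CCAAT and 35.7% GGGCGG. GC content was 62.7% in the Arvcf window and 48.0% in the Gpa33 window, against a median of 52.7% over all windows. The Arvcf window held 16 CpG pairs and the Gpa33 window 4, against a median of 7. The other 2 Arvcf windows, not shown, differed from the first: one held none of the 3 motifs and 4 CpG pairs, and the other held 1 CCAAT, 3 GGGCGG and 12 CpG pairs. These matches describe letters only.

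Depth was similar in all libraries. The totals implied by the deposited counts and FPKM values (fragments relative to gene length and to library size) ran between 66114058 and 77355820 counts per library, and low counts came in steps of 4, so the counts behind 1 fragment are taken as 4. By distance over the tested genes, iMSC replicate 2 stood apart from the other iMSC libraries (mean distance 5.81, against 3.71 and 3.57 for the other iMSC libraries), so it is named where a result turns on it. Of the marker lists for cell types that the cultures could hold, the table had 0 of 10 pluripotency genes, 1 of 10 fibroblast genes (Fap), 4 of 11 leukocyte genes (Itgb2, Lck, Clec10a, Tspan32) and 1 of 11 skin epithelium genes (Tmprss2), so the labels could be checked only in part. Summed leukocyte-list FPKM was 1.74 to 2.51 in iMSCs, 0.988 to 1.39 in BMSCs, 5.32 to 6.43 in iPSCs and 0.779 to 1.12 in Fibs. Fap, a marker of the fibroblasts that feeder layers consist of, ran from 0.00877 to 0.0892 FPKM in iMSCs, 0.121 to 0.280 in BMSCs, 0 to 0.0452 in iPSCs and 0.280 to 0.338 in Fibs. Tmprss2 lay between 0 and 0.0864 FPKM in iMSCs, 0.0145 and 0.0639 in BMSCs, 0.182 and 0.254 in iPSCs, and 0 and 0.0608 in Fibs. The leukocyte sum in iPSCs was mostly Lck (mean 1.11 FPKM in iMSCs, 0.562 in BMSCs, 4.79 in iPSCs and 0.170 in Fibs), whereas Itgb2 averaged 1.05 FPKM in iMSCs, 0.610 in BMSCs, 0.767 in iPSCs and 0.783 in Fibs. Lck and Tmprss2 were thus highest in iPSCs, as the 4 genes were, and their part in the results was not tested. In such bulk RNA, fewer cells that express a gene and less RNA per cell cannot be told apart.

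All 4 genes were highest in iPSCs, and no iPSC library overlapped any other library. The share of the other genes with iPSC libraries above all others was not computed. Whether the 4 genes stand out by that pattern was therefore not tested. What remained outside iPSCs differed by gene, from 23.1% to 41.9% of the iPSC mean for Arvcf to under 1% for Cdh1 and Gpa33. The fits covered 70 genes, those that reached 1 FPKM in 3 or more of the 12 libraries, which left out Cdh4. Calling a gene took an edgeR adjusted p below 0.05 together with a change of more than 1 on the log2 scale, whereas genes said to have risen or fallen passed the adjusted p, whatever the size. The 3 tested genes Cdh1, Arvcf and Gpa33 were all called higher in iPSCs than in Fibs, as were 32.9% of the 70 tested genes. The 3 were also called lower in iMSCs than in iPSCs, as were 37.1% of the tested genes, and lower in BMSCs than in iPSCs, as were 30.0%. Where iPSCs were not compared, 1 of the 3, Cdh1, was called higher in iMSCs than in Fibs, against 14.3% of the tested genes. Cdh1 was also the 1 of 3 called higher in iMSCs than in BMSCs, against 2.86% of the tested genes. In BMSCs against Fibs edgeR, DESeq2 and limma each called 0 of 3, against 25.7% of the tested genes in either direction, while 1 of the 3, Arvcf, had an unadjusted and an adjusted p under 0.05. Cdh1 and Gpa33 reached 1 FPKM in iPSC libraries alone and so entered the fits through the group where they were high. The counts of calls against iPSCs are therefore a description, and so are the adjusted p of Cdh1 and Gpa33 against iPSCs. Comparisons that share a group share its libraries and are not independent.

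**Figure D1:**
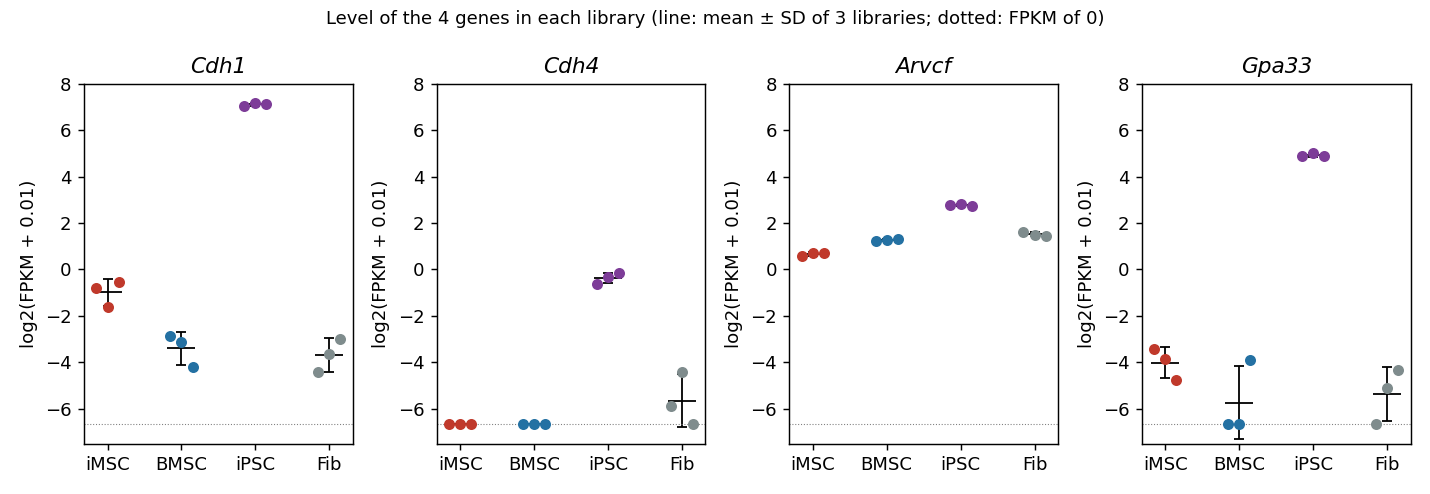
Level of Cdh1, Cdh4, Arvcf and Gpa33 in each of the 12 libraries on a log2(FPKM + 0.01) axis, with points for libraries, lines for the mean ± SD of 3 libraries on that axis, and a dotted line for an FPKM of 0. The iPSC points lie above all others in each panel, Arvcf stays within a narrow band elsewhere, and Cdh4 sits on the dotted line in all iMSC and BMSC libraries.

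Cdh1 (ENSMUSG00000000303, chr8:106603351-106670246, plus strand) was the most strongly expressed of the 4 genes in iPSCs and was low but counted in every other library. In iPSCs its level was 132, 143 and 139 FPKM in replicates 1 to 3. In Fibs it was 0.0364, 0.0700 and 0.117 FPKM. All iPSC libraries lay far above all Fib libraries. The means were 138 ± 5.83 FPKM in iPSCs and 0.0744 ± 0.0405 FPKM in Fibs (SD, n = 3 each). The pooled level (summed counts of a group over its summed library totals) was 1812 times as high in iPSCs as in Fibs. Its exact 95% counting interval was 1162 to 3100, and all ratios with a counting interval are ratios of pooled levels. The edgeR log2 fold change was 10.82 ± 0.23 (SE, adjusted p = 3.38e-08). Here and below, each adjusted p of Cdh1 against iPSCs is a description, since iPSC libraries alone brought Cdh1 into the fits.

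After induction to iMSCs, Cdh1 fell but did not reach the level of the other mesenchymal cells. Its FPKM was 0.572, 0.312 and 0.672 in iMSC replicates 1 to 3, a mean of 0.519 ± 0.186 and 0.376% of the iPSC mean. In iMSCs the log2 fold change against iPSCs was -8.05 ± 0.38 (SE, edgeR adjusted p = 7.01e-06), and the iPSC level was 265 times the iMSC level (counting interval 223 to 320). BMSCs had 0.127, 0.106 and 0.0446 FPKM, a mean of 0.0926 ± 0.0428 and 0.0671% of the iPSC mean. Against iPSCs, the BMSC log2 fold change was -10.52 ± 0.20 (SE, edgeR adjusted p = 7.6e-09).

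Among the cells that are not iPSCs, Cdh1 was highest in iMSCs. All 3 iMSC libraries lay above all BMSC and all Fib libraries, and the share of other genes with that order was not computed. Cdh1 counts were 174, 101 and 223 in iMSCs, 42, 34 and 16 in BMSCs, and 12, 23 and 38 in Fibs. Against Fibs, the pooled iMSC level was 6.83 times as high (counting interval 4.19 to 12) and the log2 fold change was 2.77 ± 0.58 (SE, edgeR adjusted p = 0.00973). The adjusted p stayed under 0.05 in all 16 alternatives of the processing, with 0.0483 as the highest. Against BMSCs, the pooled iMSC level was 5.55 times as high (counting interval 3.52 to 9.04), with a log2 fold change of 2.46 ± 0.52 (SE, edgeR adjusted p = 0.0249). This second call depended on single libraries. The adjusted p rose to 0.109, 0.104 and 0.0867 without BMSC replicates 1, 2 and 3, to 0.108 without iMSC replicate 1 and to 0.0909 without iMSC replicate 3. The lowest iMSC library for Cdh1 was replicate 2, the one that stood apart. Without it the log2 fold change was 3.03 against Fibs (adjusted p = 0.00233) and 2.73 against BMSCs (adjusted p = 0.000979).

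BMSCs and Fibs overlapped for Cdh1. The pooled BMSC level was 1.23 times that of Fibs with a counting interval of 0.644 to 2.45. The log2 fold change was 0.31 ± 0.78 (SE, edgeR adjusted p = 0.754), so a difference of this size was not detectable at this depth. In CPM (counts scaled to a common library total), the per-library counting intervals ran from 0.916 to 4.02 over the iMSC libraries, from 0.0597 to 1.03 over the BMSC libraries and from 0.0362 to 1.05 over the Fib libraries. The interval of iMSC replicate 2 (0.916 to 2.09) thus overlapped the upper ends of BMSC replicate 1 and Fib replicate 3, while those of the other 2 iMSC libraries lay above all BMSC and Fib intervals. These intervals cover counting error only.

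**Figure D2:**
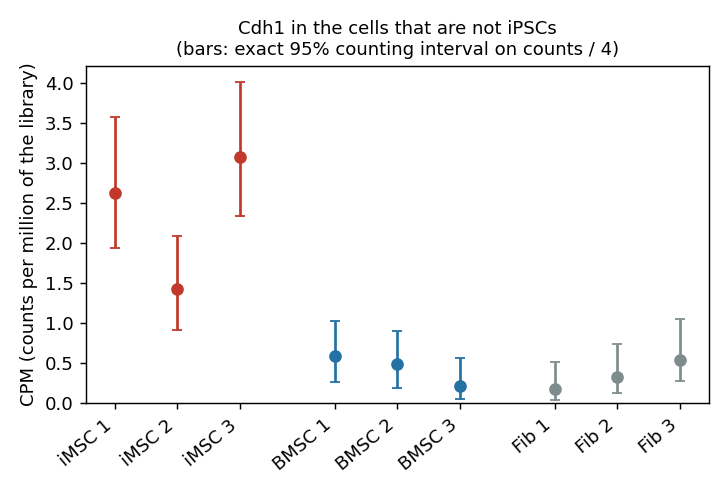
Cdh1 in CPM (counts scaled to a common library total) for the 3 iMSC, 3 BMSC and 3 Fib libraries, with bars for the exact 95% counting interval on counts divided by 4. The iMSC points lie at 1.43 to 3.08 and the BMSC and Fib points at 0.589 or less.

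Cdh4 (ENSMUSG00000000305, chr2:179442431-179899373, plus strand), a classical cadherin named for its expression in the retina, was a low-level gene that was nearly confined to iPSCs among these 12 libraries, with counts also in 2 Fib libraries. All iMSC and all BMSC libraries had 0 counts. iPSC replicates 1 to 3 had 334, 426 and 499 counts, or 0.642, 0.788 and 0.885 FPKM. Fibs had 4, 19 and 0 counts, or 0.00683, 0.0368 and 0 FPKM, so nearly all of their signal came from replicate 2. Per length, the iPSC mean of Cdh4, 0.772 ± 0.122 FPKM (SD, n = 3), stood far under the 138 FPKM of Cdh1.

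The pooled iPSC level of Cdh4 was 51.4 times that of Fibs, with a counting interval of 22.4 to 135. A count of 0 over a group allows up to 3 fragments, or 12 counts. Set against that floor over the group, the pooled iPSC level of Cdh4 was 98.4 times that of iMSCs and 101 times that of BMSCs. The lower limits of the counting intervals, which also count the error in iPSCs, were 79.6 against iMSCs and 81.6 against BMSCs. Since all its values were under 1 FPKM, Cdh4 was tested only in fits with no filter on low values. There the log2 fold change of iPSCs against Fibs was 5.66 ± 1.04 (SE, edgeR adjusted p = 0.00179), where 31.6% of 98 genes were called higher. The adjusted p stayed between 0.00026 and 0.00938 when each of the 6 libraries was left out in turn, but without Fib replicate 2 the log2 fold change was 7.52. Cdh4 also fell in iMSCs against iPSCs (adjusted p = 7.89e-05, where 33.7% of genes were called lower) and in BMSCs against iPSCs (adjusted p = 2.65e-06, where 32.0% were). The 0 counts of iMSCs and BMSCs against the 23 counts of Fibs gave adjusted p of 0.161 and 0.118, and the groups overlapped at 0.

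Arvcf (ENSMUSG00000000325, chr16:18348182-18407076, plus strand), the p120-catenin relative that binds the cadherin tail near the membrane, was counted at moderate level in every library. Its 4 groups did not overlap, and the share of other genes with such a separation was not computed. The FPKM of Arvcf was 1.46, 1.61 and 1.61 in iMSC replicates 1 to 3, and 2.30, 2.37 and 2.44 in BMSCs. It was 6.74, 7.01 and 6.60 FPKM in iPSCs, and 3.03, 2.75 and 2.74 in Fibs. iPSCs were thus highest and iMSCs lowest, with Fibs above BMSCs in between. The mean was 1.56 ± 0.0869 FPKM in iMSCs, 2.37 ± 0.0706 in BMSCs, 6.78 ± 0.212 in iPSCs and 2.84 ± 0.167 in Fibs (SD, n = 3 each).

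Arvcf was higher in iPSCs than in Fibs by a log2 fold change of 1.25 ± 0.09 (SE, edgeR adjusted p = 6.45e-06), a ratio of 2.38. It fell in iMSCs against iPSCs, with a log2 fold change of -2.11 ± 0.12 (adjusted p = 1.04e-05), and in BMSCs against iPSCs, with -1.51 ± 0.07 (adjusted p = 3.62e-07). These sizes depend on the scaling, which shifted the median log2 fold change of all tested genes. With median-ratio and TMM scaling that median moved by -0.43 and -0.46 for iPSCs against Fibs, and the value of Arvcf became 0.82 and 0.80, under the fold threshold and still under the adjusted p of 0.05. With library totals as used here, the median over all tested genes was 0.57 in that comparison, -0.29 for iMSCs against iPSCs and -0.26 for BMSCs against iPSCs.

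Among the cells that are not iPSCs, Arvcf ran opposite to Cdh1 in iMSCs, where Cdh1 was highest and Arvcf lowest. Arvcf fell in iMSCs against Fibs by 0.86 on the log2 scale (SE 0.14, edgeR adjusted p = 0.00341, where 28.6% of genes fell). That result held in all 16 alternatives at an adjusted p of 0.0233 or less. It fell in iMSCs against BMSCs by 0.60 (SE 0.13, adjusted p = 0.0249, where 7.14% of genes fell), but the adjusted p was 0.0883 to 0.109 without any 1 BMSC library, was also over 0.05 without iMSC replicate 1 or 3, and was 0.00216 without iMSC replicate 2. In BMSCs against Fibs the log2 fold change was -0.26 ± 0.10 (SE, adjusted p = 0.0410, where 37.1% of genes fell), and only 4 of the 16 alternatives kept the adjusted p under 0.05, with 0.145 as the highest. None of these 3 differences reached the fold threshold of 2.

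**Figure D3:**
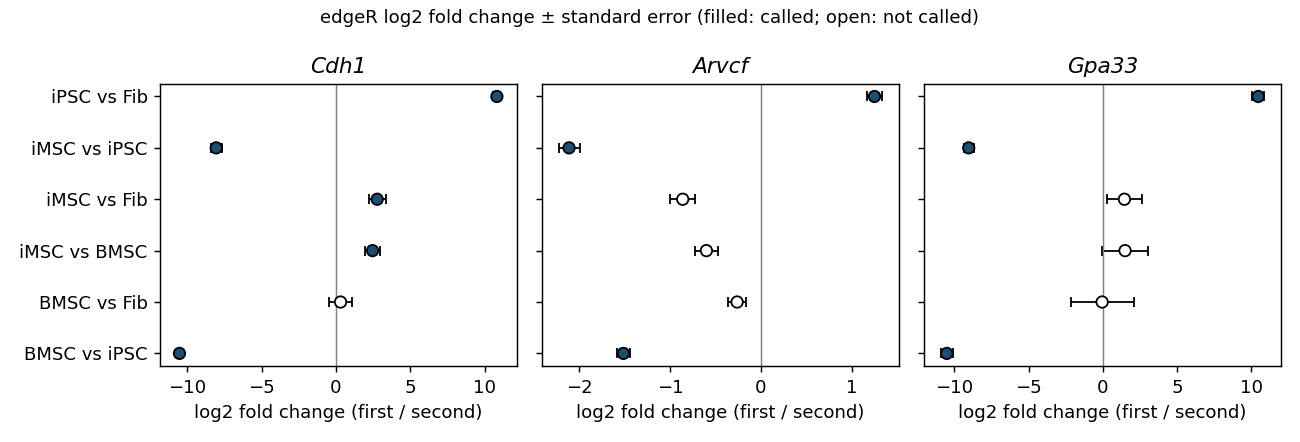
edgeR log2 fold change ± SE of Cdh1, Arvcf and Gpa33 in the 6 comparisons, first-named group over second, with filled points for called genes and open points for genes not called. The horizontal axis of the Arvcf panel spans a narrower range than the other panels, and Cdh1 is the one gene with filled points where iPSCs are not part of the comparison.

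Gpa33 (ENSMUSG00000000544, chr1:166130238-166166510, plus strand), the gut-epithelium surface antigen, was on in iPSCs and near the counting floor elsewhere. In replicates 1 to 3, iMSCs had 15, 12 and 6 counts and BMSCs had 0, 0 and 12. iPSCs had 5813, 6650 and 6202 counts, or 29.7, 32.6 and 29.2 FPKM, and Fibs had 0, 4 and 8 counts. The mean was 0.0562 ± 0.0277 FPKM in iMSCs, 0.0187 ± 0.0325 in BMSCs, 30.5 ± 1.83 in iPSCs and 0.0196 ± 0.0197 in Fibs (SD, n = 3 each).

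The log2 fold change of Gpa33 was 10.47 ± 0.41 in iPSCs against Fibs (SE, edgeR adjusted p = 3.87e-07), -9.03 ± 0.32 in iMSCs against iPSCs (adjusted p = 1.61e-06) and -10.50 ± 0.42 in BMSCs against iPSCs (adjusted p = 2.07e-07). These adjusted p are a description, since iPSC libraries alone brought Gpa33 into the fits. As a ratio of pooled levels, iPSCs stood 1461 times above Fibs (counting interval 500 to 7086), 531 times above iMSCs (277 to 1268) and 1496 times above BMSCs (511 to 7255). The wide intervals come from the few counts in the low groups. All 12 BMSC counts lay in replicate 3, so without it BMSCs were at 0 counts and gave no interpretable fold, and without Fib replicate 3 the log2 fold change of iPSCs against Fibs was 11.43. The 3 low groups overlapped one another. In iMSCs the pooled level was 2.75 times that of Fibs (0.641 to 15.6) and 2.82 times that of BMSCs (0.656 to 16), with edgeR adjusted p of 0.328 and 0.543. BMSCs had 0.977 times the pooled Fib level (0.131 to 7.29, adjusted p = 0.984). A difference like that of Cdh1 in iMSCs, 6.83 times Fibs and 5.55 times BMSCs, lies inside these Gpa33 intervals and could not be told from none at this depth.

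Other genes of junctions and epithelia were taken from lists of cadherins, catenins and tail partners, related immunoglobulin adhesion genes, other epithelial genes and regulators of Cdh1. Of the 115 genes listed, which include the 4, 8 others were in the table and 3 were tested: Fer, Gna12 and Tpd52l1. Across the comparisons these gave 2 higher and 1 lower in iPSCs against Fibs (median log2 fold change 0.18, against 0.57 over all tested genes), 0 higher and 2 lower in iMSCs against iPSCs (-0.78, against -0.29), and 1 higher and 1 lower in BMSCs against iPSCs (-0.19, against -0.26). In iMSCs against Fibs 1 was lower and 2 did not pass (-0.02, against 0.09), in iMSCs against BMSCs 0 of 3 passed (-0.19, against 0.04), and in BMSCs against Fibs 1 was higher, 1 lower and 1 did not pass (0.17, against -0.06).

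Fer, a tyrosine kinase that binds p120-catenin, did not follow the 4 genes, since it was highest in Fibs. Its mean was 2.83 ± 0.563 FPKM in iMSCs, 4.29 ± 0.404 in BMSCs, 4.89 ± 0.379 in iPSCs and 8.75 ± 0.573 in Fibs (SD, n = 3 each). It was lower in iPSCs than in Fibs (log2 fold change -0.84, edgeR adjusted p = 0.000148) and, like Arvcf, lowest in iMSCs, where it fell against Fibs (-1.62, adjusted p = 0.00192) and against iPSCs (-0.78, adjusted p = 0.00946). Gna12, a G-protein alpha subunit whose product can bind the E-cadherin tail, stayed within a narrow band, with means of 24.5 FPKM in iMSCs, 26.4 in BMSCs, 22.8 in iPSCs and 20.1 in Fibs. Tpd52l1, a tumour protein D52 relative, was the only gene tested from the list of other epithelial genes, and it was highest in iPSCs. Its means were 1.62 FPKM in iMSCs, 1.84 in BMSCs, 8.64 in iPSCs and 1.64 in Fibs. The iMSC libraries were uneven, at 1.55, 2.61 and 0.706 FPKM in replicates 1 to 3. Its log2 fold change was 2.39 in iPSCs against Fibs (adjusted p = 0.000109), -2.41 in iMSCs against iPSCs (0.00467) and -2.22 in BMSCs against iPSCs (2.19e-05).

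The 5 listed genes that were not tested were low throughout. Alox12, an epidermal and platelet lipoxygenase, averaged 0.227 FPKM in iMSCs, 0.0559 in BMSCs, 0.777 in iPSCs and 0.0494 in Fibs, where replicates 1 and 2 were listed at 0 and replicate 3 at 0.148. Cttnbp2, which encodes a cortactin-binding protein, averaged 0.00202 FPKM in iMSCs (all of it from 1 library), 0.0107 in BMSCs, 0.167 in iPSCs and 0.0336 in Fibs. Tmprss2, an epithelial serine protease, averaged 0.0311 FPKM in iMSCs, 0.0451 in BMSCs, 0.217 in iPSCs and 0.0227 in Fibs. Igsf5, a tight-junction immunoglobulin protein, was at 0 counts in 11 of the 12 libraries. Tbx2, a T-box factor known to repress Cdh1, averaged 0.220 FPKM in iMSCs, 0.0536 in BMSCs, 0.188 in iPSCs and 0.398 in Fibs. Its iMSC values were 0.387, 0.0147 and 0.258 FPKM in replicates 1 to 3.

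**Figure D4:**
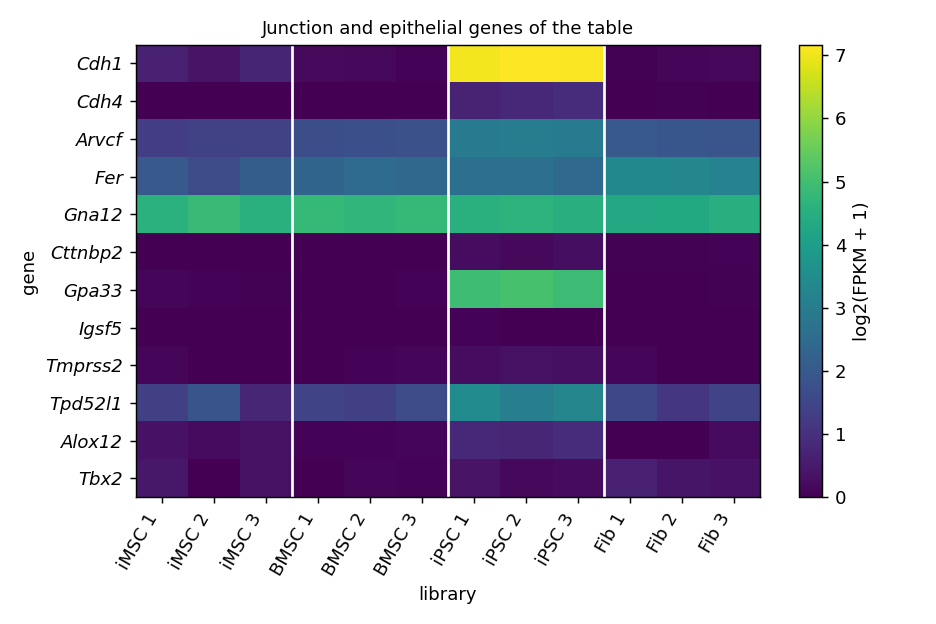
log2(FPKM + 1) of the 4 genes and of the 8 other listed genes in the 12 libraries, grouped by cell type. Cdh1 and Gpa33 are bright in the 3 iPSC columns and dark elsewhere, Tpd52l1 is brightest in iPSCs, Fer is brightest in Fibs, and Gna12 is even.

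Of the mesenchymal list, 3 of 25 genes were in the table, for contrast. Fap, which was too low to be tested, averaged 0.0387 FPKM in iMSCs, 0.189 in BMSCs, 0.0301 in iPSCs and 0.316 in Fibs. Itga5, a fibronectin receptor subunit, averaged 113 ± 55.5 FPKM in iMSCs (79.4, 177 and 83.2 in replicates 1 to 3, so the mean was raised by replicate 2), 62.0 ± 0.939 in BMSCs, 57.5 ± 2.58 in iPSCs and 37.6 ± 2.21 in Fibs. Cav2, a caveolin, averaged 5.59 ± 1.32 FPKM in iMSCs, 7.57 ± 0.454 in BMSCs, 1.72 ± 0.0828 in iPSCs and 13.8 ± 1.41 in Fibs (SD, n = 3 each). Cav2 was thus lowest where Cdh1, Cdh4, Arvcf and Gpa33 were highest, with a log2 fold change of -3.00 in iPSCs against Fibs (edgeR adjusted p = 3.87e-07), whereas Itga5 was not lowest in iPSCs.

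The genes whose pattern was most like each of the 4 were found by Pearson's r of log2(FPKM + 1) over the 12 libraries. The 3 iPSC libraries lie far above the rest for these genes and set most of each value, so r is given as a description. Cdh1 was most like Gpa33 (r = 0.998), Ckmt1 (0.997) and Bcl6b (0.997), with Spearman's rho of 0.761, 0.571 and 0.937. Bcl6b, a transcriptional repressor, likewise had all iMSC libraries above all BMSC and Fib libraries, with means of 0.326 FPKM in iMSCs, 0.160 in BMSCs, 5.52 in iPSCs and 0.0604 in Fibs. Gpa33 was most like Ngfr (0.998), Pdgfb (0.998) and Cdh1 (0.998), and Cdh4 was most like Pdgfb (0.993), Ckmt1 (0.993) and Gpa33 (0.992). Arvcf differed in its likest genes: H19 (0.981, rho 0.930), Rnf17 (0.948) and Ngfr (0.945). H19, an imprinted noncoding RNA, kept the same order as Arvcf, with 0.711 ± 0.463 FPKM in iMSCs, 2.56 ± 0.530 in BMSCs, 27.9 ± 6.49 in iPSCs and 3.99 ± 0.752 in Fibs (SD, n = 3 each).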

How the data were processed

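Poly(A) RNA of 3 cultures each of iMSCs, BMSCs, iPSCs and Fibs was sequenced as pairs of 150 bases. Per the submitters' processing notes, cutadapt 1.9, HISAT2 2.0.4 and StringTie 1.3.4d were used. The authors' deposited FPKM values were scaled by transcript length and library total, with StringTie and Ballgown. The authors' deposited counts are whole numbers per gene with no normalization, made in a way the sources do not state. Whether strand was used in counting is not stated either, so reads from any overlapping genes cannot be told apart. Of 77 counts from 1 to 13, 61 were 4, 8 or 12. Counting intervals (exact, 95%) were therefore computed on counts divided by 4 and cover counting error only. The edgeR and DESeq2 fits took the counts undivided, and their p with divided counts were not computed. The notes name mm9, while the coordinates of the 4 genes and the start and end of 79 of the 99 genes equal those of GENCODE M21 on GRCm38, so coordinates are given as GRCm38. Since the 99 genes make up 0.365 to 0.485% of each library, totals were computed from count, FPKM and transcript length of 7 to 9 genes with at least 500 counts each.

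Each of the 6 comparisons was fitted on its own 6 libraries with edgeR 4.0.16 in R 4.3.3 (quasi-likelihood test, prior count 0.125, Benjamini-Hochberg over 70 genes). The edgeR step was run on simulated counts that had no steps of 4 and no outlying library, so that run does not cover these features. The 4 genes, the lists and the rule for named genes (the 4, listed genes of the table and the 3 genes most like each, with 1 part of the rule not reported here) were chosen with earlier results of these data known. p-values measure the spread between 3 cultures. Replicates differed by more than sampling noise (chi-square per degree of freedom 3.88 to 11.9, and 152 and 168 in the pairs with iMSC replicate 2), and all were used as separate replicates. Alternatives were other scalings (TMM, median ratio), DESeq2 1.42.0, limma 3.58.1 on log2(FPKM + 1) and log2(FPKM + 0.1), no filter, an FPKM of at least 5, all 12 libraries in 1 fit, a replicate block, no fold threshold, and fits without each library. The fits with no filter that leave out a library were added after seeing the data.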

Additional observations from a re-analysis of the deposited data

How the results depend on the processing

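Of 288 repeats (18 log2 fold changes of Cdh1, Arvcf and Gpa33, each under 16 alternatives), 273 kept their direction and their side of the threshold, 11 lost the call and 4 changed sign without having been called. The number of the 3 genes called in iMSCs against Fibs was 0 with limma on log2(FPKM + 1) and 2 with the adjusted p alone. In iMSCs against BMSCs it was 0 with limma on log2(FPKM + 1), 0 with the replicate block and 2 with the adjusted p alone, and it ranged from 0 to 1 when a library was left out. In BMSCs against Fibs it was 1 with the adjusted p alone. On the log2(FPKM + 1) scale small values are compressed, and Cdh1 in iMSCs came to 0.49 against Fibs and 0.47 against BMSCs. Cdh1 and Gpa33 kept every call in the 3 comparisons with iPSCs, and Arvcf kept its calls except in iPSCs against Fibs under 3 scalings (0.80 to 0.82). Uncalled values that changed sign were Cdh1 in BMSCs against Fibs (-0.0075 without Fib replicate 1, range -0.0075 to 0.78 over libraries left out) and Gpa33 in the same comparison (0.52 without BMSC replicate 1 or 2, and 0.91 without Fib replicate 3, range -5.04 to 0.91, where a group left at 0 counts has no interpretable fold). Replicate numbers were not taken as pairs, since 0 of 6 comparisons had every correlation of same-numbered deviations over 0.1 (range -0.39 to 0.44). With 3 libraries per group this check cannot exclude pairing. With the replicate block, the edgeR adjusted p of Cdh1 in iMSCs against BMSCs was 0.126 and that of Arvcf 0.180, and no other call at the fold threshold changed. With other scalings, genes called higher and lower in iPSCs against Fibs numbered 19 and 19 (median ratio) or 19 and 20 (TMM), against 23 and 15 here. For iMSCs against iPSCs they were 16 and 17 or 18 and 17, against 12 and 26. With no filter, Cdh4 was called as well in the 3 comparisons with iPSCs. Depth limits Gpa33 and Cdh4 outside iPSCs, where a group held at most 33 and 23 counts.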
